A study of Homo sapiens with 6 samples.

Results

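The mitochondrial ribosomal proteins were described here at the level of their mRNAs. Members were the gene symbols that begin with MRPL or MRPS, followed by digits and at most 1 letter A, B or C, with pseudogenes dropped. This gave 78 of the 37822 genes in the deposited table, of which 49 are named for the large subunit (MRPL) and 29 for the small subunit (MRPS). Huh7 cells, a human hepatocellular carcinoma line, received a lentivirus with VPS72 or a FLAG control lentivirus. The labels give the genotypes as VPS72 overexpression and WT, and both groups, with 3 libraries each, were exposed to virus for 24 h. The virus was packaged in HEK293T cells, a human embryonic kidney line, so the control cells carried a lentivirus too. VPS72 encodes an H2A.Z-binding protein shared by the chromatin remodelling complexes SRCAP and TIP60. The comparison asked which transcripts differ when VPS72 is raised.

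The mitochondrial ribosome, or mitoribosome, makes the small set of respiratory chain proteins that mitochondrial DNA encodes. Its ribosomal RNAs are transcribed inside the mitochondrion, while all of its proteins are encoded in the nucleus, made in the cytosol and imported. Some of these proteins have counterparts in bacterial ribosomes and others exist only in mitochondria, and liver cells, rich in mitochondria, use them to sustain oxidative phosphorylation. The names do not always follow the structure. MRPS30 and MRPS18A encode proteins that sit in the large subunit, and the MRPS36 protein belongs to the alpha-ketoglutarate dehydrogenase complex rather than to the ribosome.

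Promoters of ribosomal and respiratory genes often carry sites for ETS factors such as GABPA, for YY1 and for NRF1. RefSeq promoters (GRCh38.p14, from 250 bases before to 50 bases after the gene's start) were matched by symbol for 69 of the 78 members and searched on both strands. The ETS core CCGGAAG was present in 29 of the 69 promoters (42%), against 19.1% of the promoters of tested genes and 10.7% of all 27305 RefSeq promoters of this length. The YY1 core AAGATGGCG was present in 13 (18.8%), against 3.9% and 1.85%. The NRF1 core, GCGCA and GCGC with 1 base of any kind between them, was present in 8 (11.6%), against 11.5% and 6.28%. A match is a run of letters and says nothing of binding, which these data did not measure. At least 1 of the cores was present in 43 of the 69 promoters (62.3%), including those of members at both ends of each subunit's fold changes. MRPL40 and MRPL50 held cores among the highest large subunit values and MRPS23 among the highest small. MRPS31, MRPS34 and MRPS18B held cores among the lowest small. No core was found for MRPL10, MRPL12, MRPL23, MRPS14 and MRPS25, and whether each had a matched promoter is not given here. The windows below show the motif, in capitals, in only some of the lowest large and some of the highest small subunit genes. They also cover the pair of MRPS genes whose proteins sit in the large subunit. Each is 30 bases, given 5′ to 3′ on the gene's strand, so that capitals reading CTTCCGG or CGCCATCTT, and those of the NRF1 window, are a core on the opposite strand.
MRPS22 has 3 ETS cores, of which that nearest the start is shown.
MRPL33, ETS core, chr2:27771700-27771729, plus strand: cgggccgtgccCCGGAAGcagttgttgttg
MRPL16, ETS core, chr11:59810766-59810795, minus strand: agtgaacacaaCTTCCGGccccactgagcg
MRPL36, YY1 core, chr5:1799854-1799883, minus strand: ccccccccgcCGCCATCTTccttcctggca
MRPL36, NRF1 core, chr5:1799928-1799957, minus strand: tcgcactccaGCGCCTGCGCactcgctgct
MRPS22, ETS core, chr3:139343988-139344017, plus strand: cctcccaaccaCTTCCGGcgcaagtggctt
MRPS24, YY1 core, chr7:43869479-43869508, minus strand: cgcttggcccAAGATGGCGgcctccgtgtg
MRPS30, YY1 core, chr5:44808950-44808979, plus strand: atcgcgggcaAAGATGGCGgcggccaggtg
MRPS18A, ETS core, chr6:43687804-43687833, minus strand: ggcgctacgttCCGGAAGcggaaatggacg
MRPS18A, YY1 core, chr6:43687763-43687792, minus strand: taggtttttgAAGATGGCGgccctcaaggc
The 39 ETS cores lay at a median of 22 bases before the start, with 33 before it, whereas 10 of the 14 YY1 cores lay after it. All 8 NRF1 cores lay before the start. Both an ETS and a YY1 core were present in 4 promoters, those of MRPL38, MRPL52, MRPS10 and MRPS18A, without overlap of the letters, and 26 promoters held none of the 3 cores. By subunit, the ETS core was in 40.5% of large and 44.4% of small subunit promoters.

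The libraries held 21345279 to 29091824 counts, and 14253 genes passed a filter on low counts. VPS72 stood at 26.7, 21.3 and 23.8 counts per 1000000 (CPM, on library sizes scaled by the trimmed mean of M-values, TMM) in the FLAG libraries and at 1149.5, 1172.5 and 1159.8 CPM with VPS72, which is the direction the labels give. In all, 88 genes changed (0.617%), 60 of them higher (0.421%) and 28 lower (0.196%). The split moved with the scaling, with 32 of 86 changed genes higher with library size scaling alone and 44 of 76 with upper quartile scaling. All 9 hepatocyte markers examined were tested. They summed to between 19056 and 19857 CPM in FLAG libraries and between 21508 and 22340 CPM with VPS72. All 9 were higher with no overlap of the groups, against 8.78% of tested genes. Of the 9, 7 passed the test, and APOA1 and AHSG did not (edgeR, adjusted p = 0.0526 and 0.165). Of 6 HEK293T markers, NEFL and HOXD10 were at 0 in every library and only SALL1 passed the filter, the list summing to between 22.9 and 24.4 CPM in FLAG libraries and between 21.2 and 26.1 CPM with VPS72. Markers of fibroblasts summed to 10.1 to 11.3 CPM in FLAG and 10.1 to 10.6 CPM in VPS72, those of immune cells to 10.6 to 12.4 and 13.4 to 14.3 CPM, and those of endothelial cells to 2.84 to 4.55 and 4.13 to 4.93 CPM. Of these 3 lists, 7 of 16 markers passed the filter and 0 changed by edgeR, and 1 had an unadjusted p under 0.05. The part of these values in the members' results was not tested.

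No mitochondrial ribosomal protein gene passed the test for a change with VPS72. Of the 78 members, 77 were tested, 48 of the large and 29 of the small subunit. Of these, 0 passed a Benjamini-Hochberg adjusted p of 0.05 by edgeR's quasi-likelihood test, against 0.617% of all tested genes. With 77 genes, 0 is near that share and does not set the members apart. DESeq2 and limma-voom also called 0, although DESeq2 gave no adjusted p for 51 members. By edgeR 4 members had an unadjusted p under 0.05 (5.19%), against 11.5% of tested genes, and DESeq2 and limma-voom gave 4 each. MRPS25 was the higher of these (6.03% of tested genes were higher at this level), and MRPL10, MRPL33 and MRPL16 were lower (5.51%). The smallest adjusted p of a member was 0.254, for MRPS25. Log2 fold changes were within 0.1 of 0 for 55 members, positive for 34 (44.2%, against 48.8% of tested genes) and negative for 43. Since RNA came from whole cultures, fewer cells with a transcript and less of it per cell cannot be told apart. Separate cultures are not stated for the replicates, so each p-value reflects the spread of these 6 libraries alone, part of which may be technical.

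**Figure D1:**
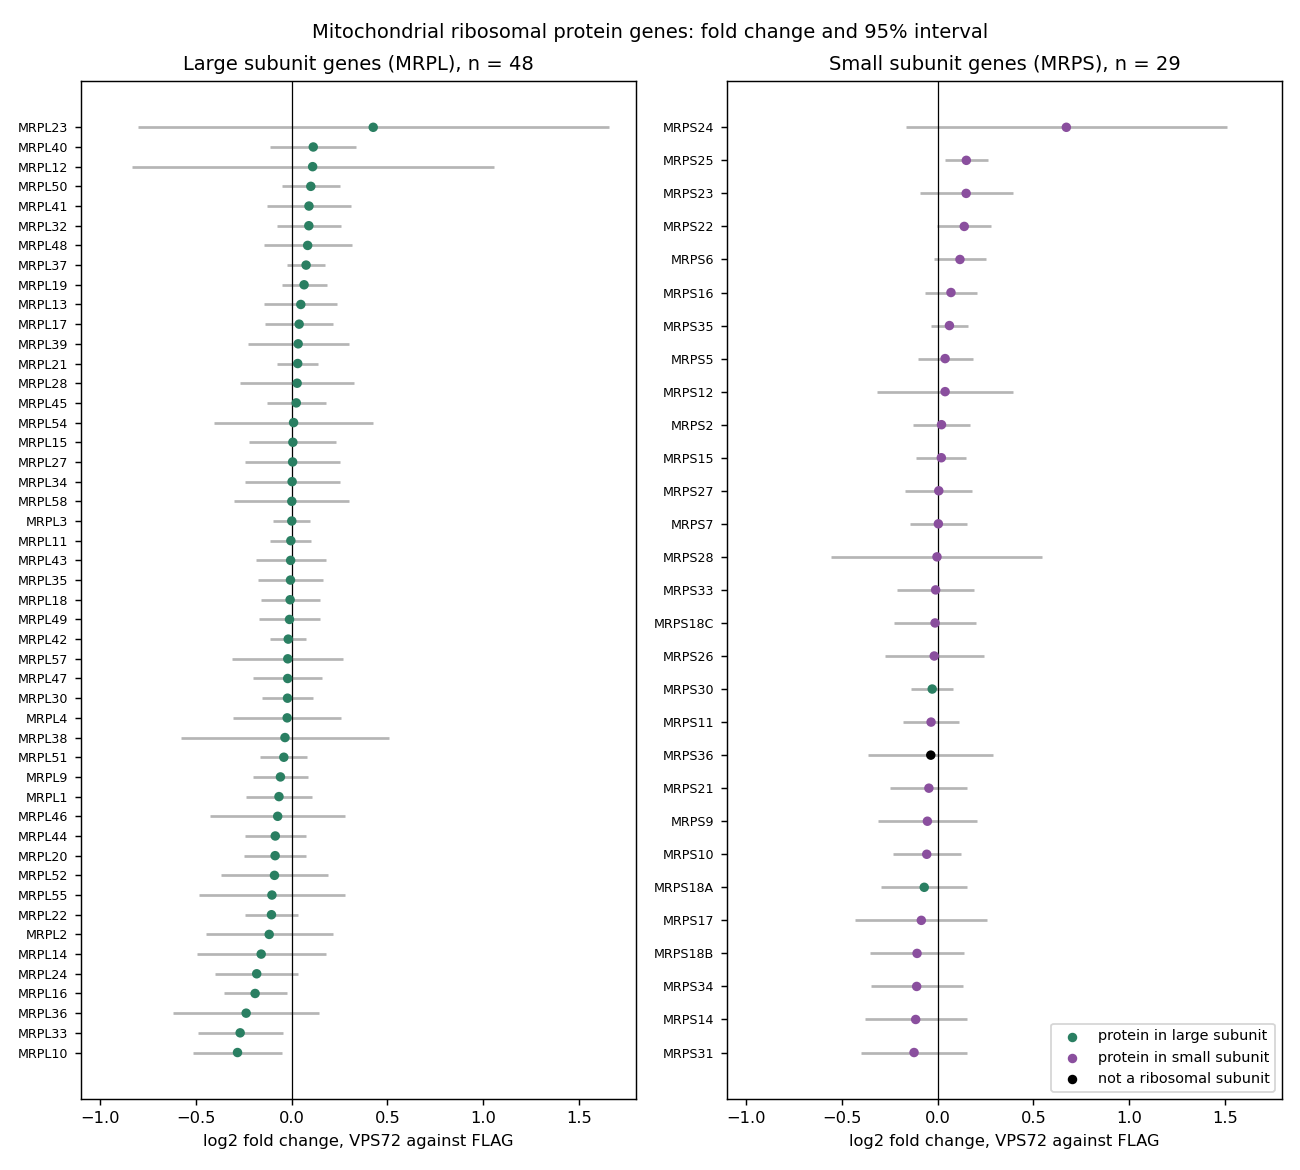
Fitted log2 fold change (VPS72 against FLAG) of each of the 77 tested members with its 95% interval, MRPL and MRPS genes apart. Most points lie within 0.1 of 0, and MRPL23, MRPL12 and MRPS24 have the widest intervals; colours give the protein's place in the ribosome.

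The size of change that these libraries could have missed differed between members. The 95% interval of the fold change lay within 1.25-fold of no change in either direction for 51 of the 77 members, within 1.5-fold for 73 and within 2-fold for 74. Its half-width on the log2 scale was 0.20 at the median, and ran from 0.09 to 1.23. MRPL42, the most abundant member by CPM, stood at 178, 172 and 167 CPM in FLAG and at 180, 166 and 165 CPM in VPS72 libraries, and its 95% interval ran from -7.48% to 5.5%. MRPL11, of the stalk base where elongation factors are recruited, stood at 160 ± 9.54 against 160 ± 8.20 CPM (SD, n = 3 per group), with an interval from -7.43% to 7.46%. For both genes the groups overlapped and changes of more than 7.48% lay outside the interval.

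Among large subunit genes, 0 of 48 changed and the median log2 fold change was -0.0067, against -0.0038 over all tested genes. The lowest values were those of MRPL10, MRPL33, MRPL36 and MRPL16. MRPL10, which anchors the L12 stalk to the ribosome, stood at 18.3, 17.2 and 15.9 CPM in FLAG and at 12.4, 14.7 and 15.2 CPM in VPS72 libraries. Every VPS72 library was below every FLAG library, although the lowest FLAG and the highest VPS72 values were close. The log2 fold change was -0.28 ± 0.11 (SE; edgeR, adjusted p = 0.312). MRPL33, a small protein conserved from bacteria, stood at 22.1, 23.7 and 21.3 CPM in FLAG and at 21.2, 18.6 and 16.0 CPM in VPS72 libraries. The groups again did not overlap, with VPS72 replicate 1 next to FLAG replicate 3, and the log2 fold change was -0.27 ± 0.10 (SE; edgeR, adjusted p = 0.316), or -0.17 without VPS72 replicate 3.

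MRPL16, a conserved protein near the site where transfer RNA enters, stood at 52.2, 42.7 and 44.3 CPM in FLAG and at 39.8, 39.1 and 43.3 CPM in VPS72 libraries. FLAG replicate 1 was the highest and VPS72 replicate 3 lay inside the FLAG range. Its log2 fold change was -0.19 ± 0.08 (SE; edgeR, adjusted p = 0.343), and -0.095 without FLAG replicate 1. MRPL36, the smallest conserved large subunit protein in bacteria, had 7.14 ± 1.28 CPM in FLAG and 6.03 ± 1.18 CPM in VPS72 libraries, and the groups overlapped. Its log2 fold change of -0.24 ± 0.18 (SE) ran from -0.39 to -0.10 with 1 library left out. MRPL44, which has an RNase III-like fold and is found only in mitochondrial ribosomes, stood at 26.8, 27.1 and 27.5 CPM in FLAG and at 24.8, 26.5 and 25.4 CPM in VPS72 libraries. It was picked for naming once its values were known, because its groups did not overlap. Its log2 fold change of -0.09 ± 0.08 (SE; edgeR, adjusted p = 0.741) did not pass the test.

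The highest large subunit values belonged to MRPL23, MRPL40, MRPL12 and MRPL50. MRPL40 stood at 16.4 ± 1.16 CPM in FLAG and 17.8 ± 1.93 CPM in VPS72 libraries, and MRPL50 at 33.9 ± 2.03 against 36.4 ± 1.21 CPM. Both belong to the proteins that bacterial ribosomes lack, and in neither did the difference pass the test. With 1 library left out the log2 fold change of MRPL40 (0.11) ran from 0.045 to 0.20, and that of MRPL50 (0.10) rose to 0.15 without FLAG replicate 1. MRPL23, at the exit of the protein tunnel, had only 5 to 21 counts per library, and its log2 fold change of 0.43 ± 0.58 (SE) was smaller than its error. MRPL12, the stalk protein, had 2.34, 0.588 and 2.05 CPM in FLAG and 0.938, 2.08 and 2.36 CPM in VPS72 libraries, the 2 groups covering the same range. Without FLAG replicate 2 its log2 fold change turned from 0.11 to -0.30.

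Among small subunit genes, 0 of 29 changed and the median log2 fold change was -0.011. MRPS25, found only in mitochondrial ribosomes, stood at 54.6, 56.7 and 58.5 CPM in FLAG and at 63.6, 61.3 and 63.5 CPM in VPS72 libraries. All VPS72 values were above all FLAG values, with a difference of 10.9% (95% interval 2.70% to 19.8%) and a log2 fold change of 0.15 ± 0.05 (SE; edgeR, adjusted p = 0.254). MRPS22, a protein of the small subunit known from inherited mitochondrial disease, stood at 33.9, 35.7 and 33.5 CPM in FLAG and at 37.2, 38.6 and 37.8 CPM in VPS72 libraries. These groups did not overlap either, and the log2 fold change was 0.14 ± 0.07 (SE; edgeR, adjusted p = 0.438).

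MRPS24, a conserved protein on the path of the mRNA into the small subunit, stood at 0.740, 0.627 and 0.744 CPM in FLAG and at 1.08, 0.909 and 1.39 CPM in VPS72 libraries. The groups did not overlap, but the libraries held only 16 to 33 counts of it, and its log2 fold change of 0.67 ± 0.39 (SE; edgeR, adjusted p = 0.556) had a 95% interval from -0.16 to 1.51. MRPS23 overlapped between groups, at 16.7 ± 2.60 against 18.5 ± 1.10 CPM, and its log2 fold change of 0.15 was 0.030 without FLAG replicate 1. At the low end were MRPS31, MRPS14, MRPS34 and MRPS18B, with log2 fold changes of -0.12, -0.11, -0.11 and -0.11, each smaller than its own 95% half-width. MRPS14 was classed as conserved from bacteria and the other 3 as specific to mitochondria, MRPS18B by its place in the ribosome. With 1 library left out these values ran from -0.20 to -0.039 for MRPS31, from -0.19 to -0.030 for MRPS14, from -0.23 to -0.027 for MRPS34 and from -0.23 to -0.014 for MRPS18B.

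In all, the groups did not overlap for 6 of the 77 tested members (7.79%), against 17.2% of all tested genes. MRPL10, MRPL33 and MRPL44 were lower and MRPS22, MRPS24 and MRPS25 higher with VPS72. All 3 lower members were thus of the large and all 3 higher members of the small subunit. No test was made of that split, and over all tested genes the share was 8.78% higher and 8.44% lower.

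**Figure D2:**
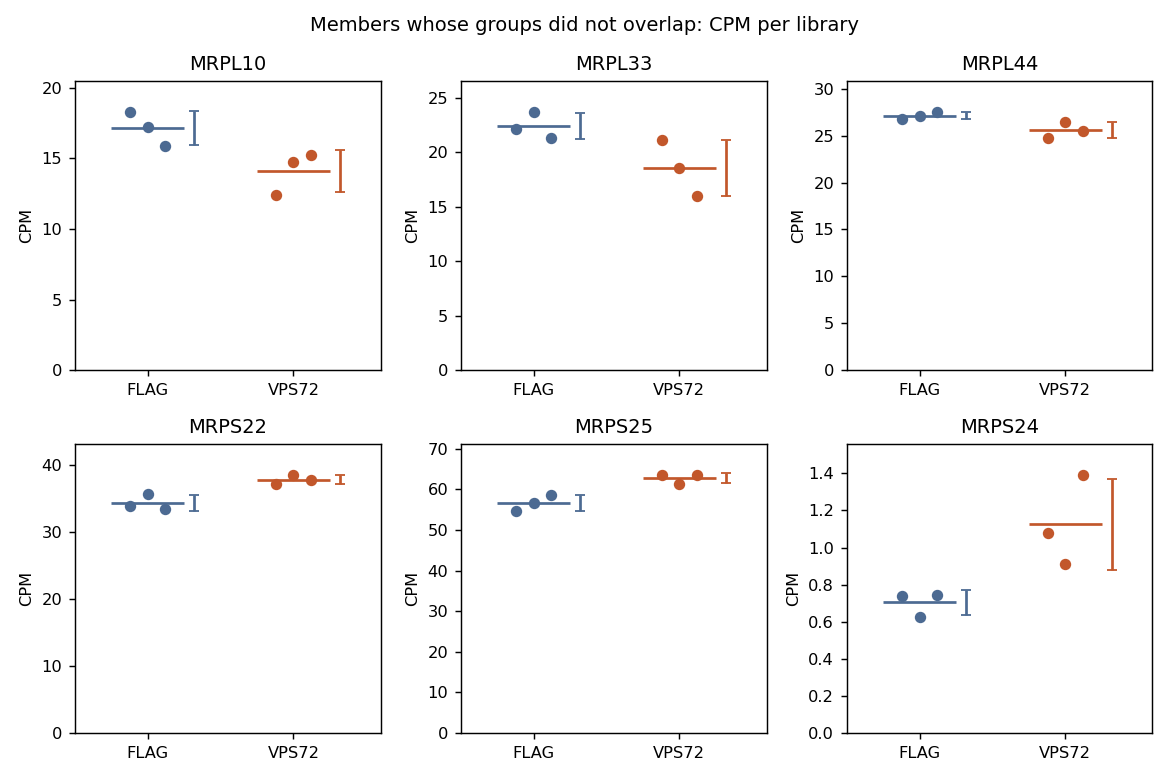
CPM in each library of the 6 members whose FLAG and VPS72 values did not overlap, with the group mean and SD (n = 3 per group); each panel starts at 0. MRPL10, MRPL33 and MRPL44 were lower and MRPS22, MRPS24 and MRPS25 higher with VPS72, with gaps between groups that are small beside the levels.

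The medians of the subunits differed by 0.0041 on the log2 scale (large minus small). With 1 library left out this difference ran from -0.023 (without FLAG replicate 3) to 0.015 (without VPS72 replicate 3), so its sign was not stable. Placing each protein by structure instead of by name gave -0.0092 for 50 large and -0.000015 for 26 small subunit genes. Of the 30 conserved large subunit genes 12 had positive values, with a median of -0.014. Of the 20 tested large subunit genes specific to mitochondria 9 were positive, with a median of -0.0079. The 16 conserved and 10 mitochondria-specific small subunit genes had 8 and 5 positive values. MRPS30, the abundant large subunit protein with a small subunit name, stood at 141, 133 and 125 CPM in FLAG and at 126, 128 and 138 CPM in VPS72 libraries, so that the groups overlapped. MRPS18A, MRPS18B and MRPS18C are related copies of the bacterial S18 protein that occupy different places in the ribosome, of which MRPS18C was counted as conserved and the other two as mitochondria-specific, and had log2 fold changes of -0.07, -0.11 and -0.01, none past the test. MRPS36 had 8.37 ± 0.97 against 8.16 ± 1.47 CPM.

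Summed over members, small subunit transcripts stood at 892 ± 4.0 CPM in FLAG and 905 ± 10.8 CPM in VPS72 libraries (SD, n = 3 per group), 1.5% higher and with no overlap. With proteins placed by structure the small subunit sums did overlap, at 727 to 741 CPM in FLAG libraries and 735 to 762 CPM with VPS72. Large subunit transcripts summed to 1642 ± 8.61 and 1626 ± 27.5 CPM, and overlapped. The ratio of the large to the small sum was 1.829, 1.844 and 1.850 in FLAG and 1.777, 1.832 and 1.780 in VPS72 libraries. VPS72 replicate 2 lay inside the FLAG range, and the means differed by -2.44%. With proteins placed by structure the ratio was 2.469, 2.463 and 2.427 in FLAG and 2.331, 2.396 and 2.385 in VPS72 libraries, -3.34% with no overlap. An exact permutation test of 3 libraries against 3 cannot give a p below 0.1, and none was made of the ratio. All members together took 0.256% to 0.257% of the unscaled counts in FLAG and 0.247% to 0.253% in VPS72 libraries, whereas on TMM-scaled CPM the sums of 2534 ± 10.5 and 2532 ± 32.7 overlapped. The 5 members at 100 CPM or more, MRPL42, MRPL11, MRPS30, MRPL3 and MRPL37, held 27.4% of the members' CPM, so these sums weigh a few genes more than the rest.

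**Figure D3:**
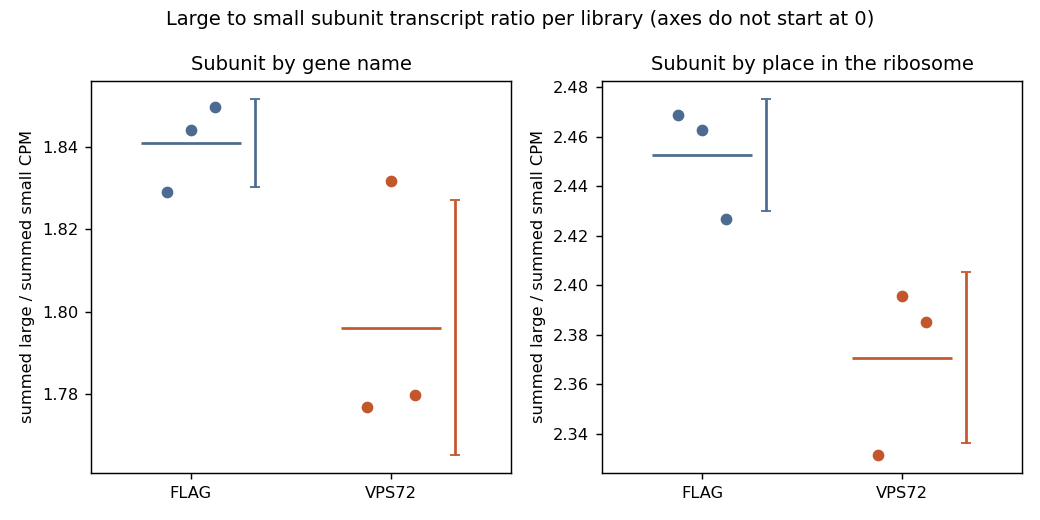
Ratio of summed large to summed small subunit CPM in each library (points) with group mean and SD (n = 3 per group), by gene name and by place in the structure. By name VPS72 replicate 2, at 1.832, lies inside the FLAG range, and by structure the groups do not overlap.

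Levels could be compared between genes only per length. On CPM per kb of the principal transcript (GENCODE v29), averaged over the 6 libraries, the median was 14.8 for large and 12.5 for small subunit genes. MRPL11 was highest at 99.6 CPM per kb, followed by MRPL21 at 93.9, MRPS30 at 78.5, MRPL37 at 74.2 and MRPL3 at 71.5. The order rests on the length of 1 transcript per gene, and whether the cells used that transcript was not tested. MRPL42, the most abundant member by CPM, ranked 49 on CPM per kb, with 15582 bases against a member median of 1455. On this measure the transcripts of proteins that are built into 1 complex spanned a wide range, although several of the lowest levels are uncertain, as given below. At the low end, MRPL53 had 0 or 1 count in each library and was not tested. Next came MRPL23 at 0.668, MRPS24 at 1.29, MRPL38 at 1.31, MRPL12 at 1.68, MRPS17 at 2.70 and MRPS28 at 2.82 CPM per kb.

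Of these lowest 7 members, 5 share at least 50% of their transcript with an annotated gene on the same strand in GENCODE v29, as does MRPL46. For MRPS24 the shared part is 85.7%, with the read-through gene URGCP-MRPS24, which held 0 counts. For MRPL53 it is 52.3%, with CCDC142, which had a mean of 251.7 counts. The same-strand partners of MRPL12, MRPL38, MRPS28 and MRPL46 are absent from the deposited table. The 6 members with such overlap had a median of 1.49 CPM per kb, against 14.7 for the other 72. The sources used here do not state how the counting treated reads in shared exons, so the levels of these 6 members are uncertain, and the part of the overlap in them was not tested. Of all members, 21 share exon bases with a gene on the opposite strand, MRPS18C and MRPS18A over 78.9% and 56.9% of the transcript. The gene opposite MRPS18C, ABRAXAS1, had a mean of 534.2 counts, and that opposite MRPS18A, RSPH9, only 0.8. Several other opposite-strand genes are absent from the deposited table. Use of strand in the counting is not given either, so their reads and those of the opposite gene may not have been told apart. The table also held 75 pseudogenes of the family, 52 of them at 0 in all libraries and 6 with a mean of at least 10 counts, led by MRPL45P2.

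**Figure D4:**
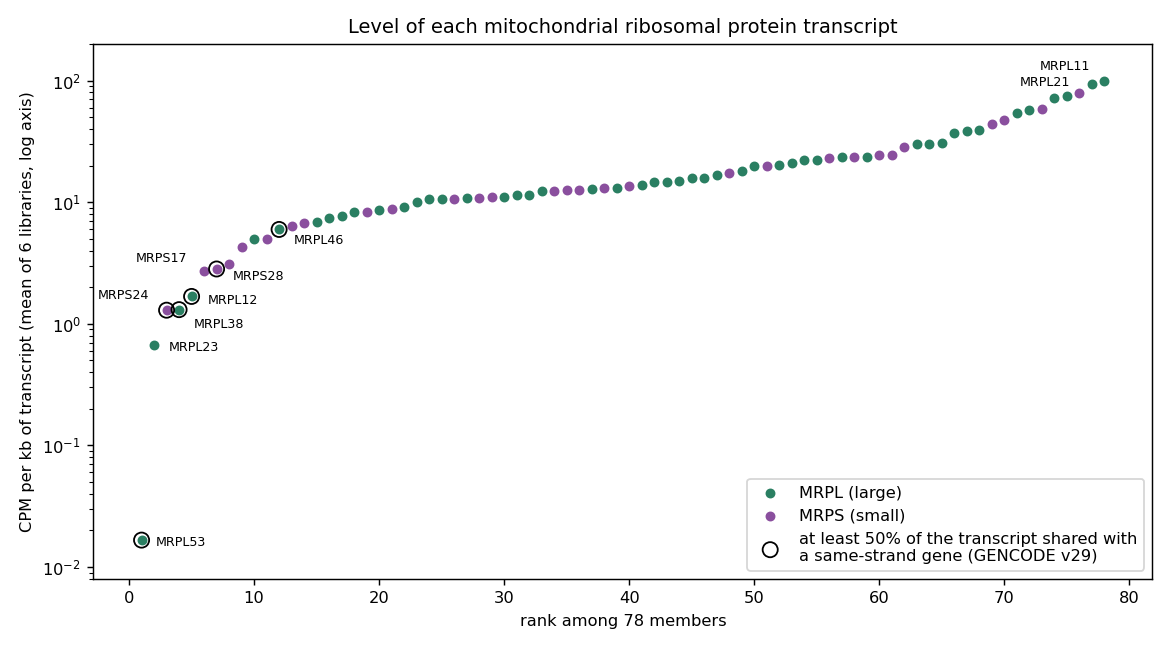
Mean CPM per kb of transcript of the 78 members over 6 libraries, in rank order on a log axis, with large and small subunit names in different colours and rings around the 6 members that share at least 50% of the transcript with a same-strand gene. Ringed members make up 5 of the lowest 7.

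The members of highest GC content varied between libraries in a way shared with other genes of like GC content. Over the 26 tested members of highest GC content (52.8% to 72.0%), the median deviation from each gene's mean on the log2 scale in libraries 1, 2 and 3 was -0.033, -0.069 and 0.071 for FLAG and -0.012, 0.047 and -0.020 for VPS72. FLAG replicate 3 and VPS72 replicate 2 were the high libraries, 1 from each group. Over all 4907 tested genes of like GC content, the same 2 libraries were high, at 0.045 and 0.039. Members of lowest GC content were highest in VPS72 replicate 1 (0.061), where all tested genes of like GC content stood at 0.0019. Members of middle GC content were highest in VPS72 replicate 2 (0.039). The median log2 fold changes of the members of lowest, middle and highest GC content were -0.016, -0.0076 and 0.0041. The between-library spread of a member was typical, with a median coefficient of variation of 7.82% in FLAG and 6.79% in VPS72 libraries, against 7.26% and 6.96% over all tested genes.

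**Figure D5:**
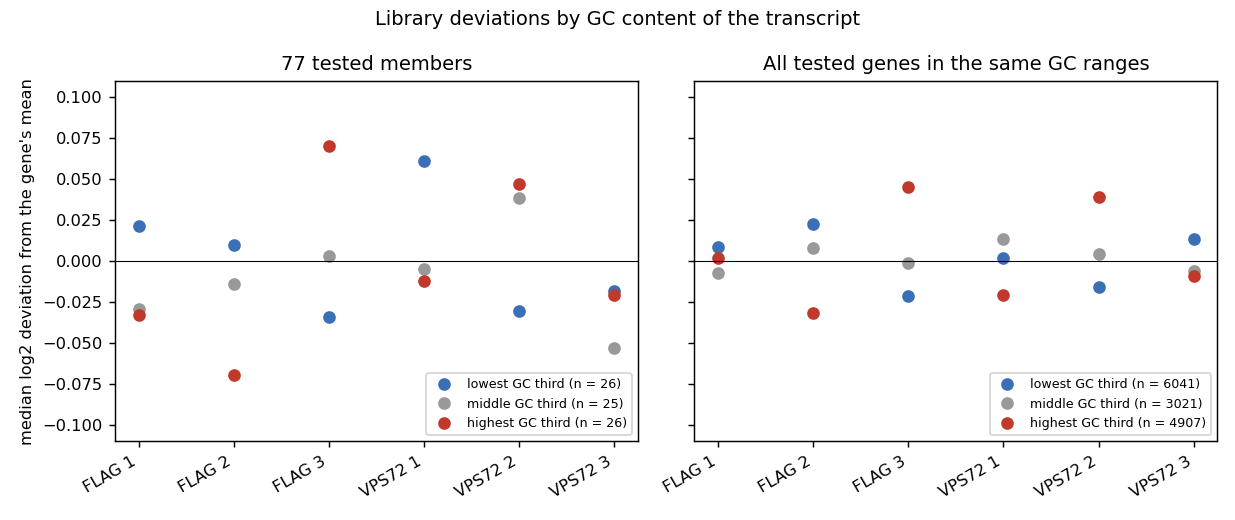
Median log2 deviation of each library from the gene's mean, for tested members split by GC content (left) and all tested genes in the same GC ranges (right). The genes of highest GC content sit high in FLAG replicate 3 and VPS72 replicate 2 in both panels.

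The members were also described by promoter motif, with no test. Median log2 fold changes were -0.016 in 28 tested members with an ETS core and -0.0057 in 40 without. They were -0.057 in 13 members with and -0.0038 in 55 without a YY1 core, and -0.021 in 8 with and -0.0063 in 60 without an NRF1 core. The factors named for these sites did not pass the test. GABPA stood at 32.7 and 32.2 CPM and YY1 at 94.8 and 95.6 CPM in FLAG and VPS72 libraries, and NRF1 at 15.2 and 13.0 CPM, with an adjusted p of 0.447 by edgeR.

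Other genes of mitochondrial translation were read from lists of their known roles. Of 5 mitoribosomal proteins with other symbols, 0 changed by edgeR and 0 had an unadjusted p under 0.05. DAP3, a small subunit protein first known from cell death, stood at 105 and 106 CPM, CHCHD1 had a log2 fold change of 0.12 ± 0.12 and GADD45GIP1 of -0.26 ± 0.15 (SE). Of 27 assembly and rRNA modification factors 0 changed, 8 had positive values, the median was -0.034, and 1 had an unadjusted p under 0.05. That was MTERF4, which with NSUN4 helps to join the subunits, at 30.6 against 25.7 CPM (log2 fold change -0.25 ± 0.08, SE; edgeR, adjusted p = 0.191). Of 16 translation factors 0 changed by edgeR and 0 had an unadjusted p under 0.05, with a median of -0.0018. TSFM, the exchange factor of the elongation factor TUFM, had 1.40 against 0.906 CPM and a log2 fold change of -0.64 ± 0.38 (SE). Of 15 genes of mitochondrial transcription and DNA maintenance 0 changed and 0 had an unadjusted p under 0.05, TEFM having -0.28 ± 0.15 and ELAC2 0.06 ± 0.05 (SE).

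Of 10 nuclear regulators of mitochondrial genes, 1 changed, against 0.617% of all tested genes (0.196% lower). PPARGC1A, which encodes the coactivator PGC-1alpha that drives mitochondrial gene programs in liver, fell from 28.4 ± 2.41 to 21.5 ± 1.11 CPM (SD, n = 3 per group), a log2 fold change of -0.40 ± 0.09 (SE; edgeR, adjusted p = 0.0489). It missed the threshold in 7 of 16 alternative fits, with adjusted p-values over the alternatives of 0.00465 to 0.224, and DESeq2 gave it no adjusted p. Among those 7 were the fits without FLAG replicate 1, FLAG replicate 2, VPS72 replicate 1, VPS72 replicate 2 and VPS72 replicate 3, each taken out alone. MYC, a driver of ribosome genes, had a log2 fold change of -0.21 ± 0.07 (SE; edgeR, adjusted p = 0.226).

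Of the 13 mitochondrially encoded mRNAs, which the mitoribosome translates, 2 rose past the test, against 0.421% of all tested genes. All 13 had positive log2 fold changes (48.8% of tested genes had), with a median of 0.07. MT-CO1, a core subunit of complex IV, rose from 21529 to 22777 CPM (log2 fold change 0.08 ± 0.01, SE; edgeR, adjusted p = 0.00123), and MT-ND1, of complex I, from 5081 to 5450.4 CPM (0.10 ± 0.02, SE; edgeR, adjusted p = 0.0313). With a trend of fold change on abundance removed MT-CO1 turned to -0.03 and MT-ND1 was 0.01. MT-ND1 missed the threshold in 10 of 16 alternative fits. MT-CO1 lost its call without VPS72 replicate 2, and MT-ND1 lost it without FLAG replicate 1, FLAG replicate 2 or any 1 of the VPS72 replicates. The ribosomal RNAs of the mitoribosome were uneven. MT-RNR1, of the small subunit, stood at 174, 113 and 77.3 CPM in FLAG and at 44.9, 575 and 57.8 CPM in VPS72 libraries, and MT-RNR2, of the large subunit, at 606, 365 and 235 and at 129, 931 and 151 CPM. VPS72 replicate 2 was the highest library for both. With all libraries neither passed the test in the main fit, and only MT-RNR1, as higher, with no filter on low counts. Without VPS72 replicate 2 both were lower with VPS72 and passed, with log2 fold changes of -1.25 (edgeR, adjusted p = 0.0248) and -1.52 (edgeR, adjusted p = 0.0167). The sources used here do not state how ribosomal RNA was removed before sequencing.

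Set beside the members were both gene groups most like them. Of 88 cytosolic ribosomal protein genes 85 were tested and 0 changed by edgeR. Their values were positive for 73 (85.9%, against 48.8% of all tested genes), with a median of 0.05. Of the 85, 20 had an unadjusted p under 0.05, all higher (6.03% of all tested genes). Their median level was 159 CPM, against 22.0 CPM for the tested members. Of 77 nuclear-encoded respiratory chain subunits 0 changed by edgeR, against 0.617% of all tested genes. Values were positive for 54 of the 77 (70.1%, against 48.8% of all tested genes), with a median of 0.04. At an unadjusted p under 0.05, 10 were higher and 2 lower, against 6.03% and 5.51% of all tested genes. With the abundance trend removed the medians of these groups were 0.03 and 0.05. The difference between these lists and the members was not tested.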

How the data were processed

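RNA was measured by sequencing in 6 libraries of Huh7 cells, 3 per group, with groups taken from the sample titles. The values the authors deposited are estimated counts, whole numbers without normalization. The unit was read from the values and from RSEM, which the submitters' processing notes name beside STAR, limma, hg19 and hg38, without role or order. The sources used here do not state the build, the annotation or the use of strand behind the table. Such estimates split reads among similar sequences, so members with pseudogenes or overlapping genes are less certain.

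The whole table of 37822 genes was filtered with filterByExpr (minimum count 10, minimum total 15), leaving 14253 genes with 99.925% of counts. Libraries were scaled by TMM. Groups were compared in edgeR (version 4.0.16, under R 4.3.3) by its quasi-likelihood test, with Benjamini-Hochberg adjustment over all tested genes and a threshold of 0.05. The common coefficient of variation was 7.24%. On simulated data of 14253 genes, 65 of 98 genes changed by 0.5 on the log2 scale and 75 of 99 changed by 1 were recovered. In the same data 7 unchanged genes were called. Smaller changes, such as those of most members, were not simulated.

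The members and lists were chosen with earlier results of these data known. Named genes were VPS72, the 4 highest and 4 lowest fold changes of each subunit, the most and least abundant members, MRPS18A, MRPS18B, MRPS18C, MRPS30, MRPS36 and MRPL12, members that failed the filter, and of each other list up to 2 genes by p. Further genes were named with their values in view. Alternatives were other scalings and filters, DESeq2 1.42.0, limma-voom (limma 3.58.1), a replicate block, removal of trends with abundance or with GC content and length, and leaving out each library. Transcript length and GC content came from GENCODE v29 and promoters from RefSeq (GRCh38.p14). MTRFR was found under the older symbol C12orf65, with a log2 fold change of 0.15 ± 0.09 (SE), and RPUSD3 had 0.17 ± 0.08 (SE).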

Additional observations from a re-analysis of the deposited data

How the results depend on the processing

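No member passed the threshold in any of the 16 alternatives. The smallest adjusted p of a member lay between 0.0758 (edgeR, GC content and length trend removed) and 0.511 (edgeR, without FLAG replicate 1). The large subunit median was lowest with library size scaling alone (-0.038), where the median of all tested genes moved too, from -0.0038 to -0.035, and 22 members were positive. It reached 0.01 at most. The small subunit median ran from -0.04 to 0.02. With subunits taken by name, the ratio of the sums kept its direction with each library left out. By structure the groups did not overlap, so leaving out 1 library could not turn that ratio and says nothing of its stability. The count of all changed genes, 88 as reported, was 264 with no filter, 249 with DESeq2, 394 after correction for GC content and length, and 54 after correction for abundance (27 of them higher, against 327 of the 394). It ran from 25 to 100 with 1 library left out. With the replicate number as a block 32 genes and 0 members changed, and PPARGC1A, MT-CO1 (adjusted p = 0.0516 by edgeR) and MT-ND1 were no longer called. Correlations of the deviations of same-numbered libraries were -0.0807, 0.00365 and 0.0767, and those of other pairs ran from -0.141 to 0.14. With 3 libraries per group these values cannot decide whether the numbers mark a shared batch, and the labels do not state it. The signs of small values turned, and the cause was not tested. After correction for abundance, log2 fold changes were 0.0060 for MRPS18C, 0.0038 for MRPS36, -0.031 for MT-CO1 and -0.033 for MT-RNR2, and after that for GC content and length 0.018 for MRPL42 and 0.0058 for MRPS18C. MT-RNR2 was -0.026 with library size scaling alone and -0.0044 with upper quartile scaling. MT-RNR1 and MT-RNR2 were -0.032 and -0.53 with limma-voom and -0.0020 and -0.50 with the block. With 1 library left out, MRPL12 ran from -0.30 to 0.46, MRPL23 from -0.034 to 0.88, MRPL42 from -0.052 to 0.0058, MRPS18A from -0.16 to 0.016, MRPS18C from -0.067 to 0.069, MRPS30 from -0.070 to 0.018 and MRPS36 from -0.15 to 0.094. MT-RNR1 ran from -1.25 to 1.39 and MT-RNR2 from -1.52 to 0.43, both lowest without VPS72 replicate 2. With no filter MT-RNR1 passed the threshold as higher, with a log2 fold change of 0.90 ± 0.046 (SE, adjusted p = 4.71e-80 by edgeR). That error was 0.633 in the main fit, and the VPS72 libraries stood at 44.9, 575 and 57.8 CPM. MT-RNR1 and MT-RNR2 both passed as lower without VPS72 replicate 2. Besides MRPL53, the stricter filter on low counts left out MRPL12, MRPL23 and MRPS24.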
